A study of Mus musculus with 4 samples.

Results

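Transcript levels were described in wild-type (WT) LSK cells, the bone marrow cells that carry Sca-1 and the receptor cKit and lack the surface markers of mature lineages. LSK cells make up the small fraction of mouse marrow that holds the haematopoietic stem cells and the multipotent progenitors that arise from them. The cells came from male C57BL/6 mice that were injected with pIpC at 8 weeks of age (5 doses of 400 μg on alternate days) and were sampled 4 weeks later, at 12 weeks. The label gives their genotype as wild type and does not mention Mx1-Cre. RNA of 3 mice was pooled and hybridised, after amplification and Cy3 labelling, to 1 Agilent array, which was 1 of 4 arrays in the study. The other 3 arrays, of mutant mice, were not used here.

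With 1 array of pooled RNA there is no spread between mice, and no test was made. The values are the deposited processed signals, in arbitrary fluorescence units after background subtraction. Of 34844 gene names on the array, 20965 (60.2%) had at least 1 probe well above background, and these are the genes described. Lists of genes were read over the 22221 genes that could be given a current RefSeq symbol, of which 14400 (64.8%) were detected in this sense. The detected genes were placed in bands, because probes differ in how strongly they bind and a signal cannot be set against that of another probe gene by gene. The abundant band was the top 10% of detected genes (1440 genes, or 6.48% of those measured), with a signal of at least 12117. The faint band was the bottom 25% (3600 genes), with a signal under 187. The 9360 genes between them were called moderate, so most of the 14400 detected genes are moderate by construction. The 7821 genes with no probe well above background are called not detected, which gives an upper bound on the signal and not an absence of transcript. A gene's percentile is its place among the detected genes, and the median over all of them is 50 by construction. A share of members detected was read against 64.8%, and a share of members abundant against 6.48%.

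LSK cells are a mixture. Long-lived stem cells, which divide rarely, lie at the top of the hierarchy, and multipotent progenitors that have begun to express lymphoid or myeloid genes make up most of the fraction. The kinase receptors Kit and Flt3 receive growth signals of these cells, and transcription factors such as Runx1, Tal1, Lyl1, Lmo2 and Gata2 keep the stem cell programme. The double-stranded RNA analogue pIpC is sensed as a virus would be and elicits type I interferon, which is known to drive resting stem cells into division for a short time. No array of untreated mice was used here, so the levels below are levels after pIpC and say nothing of what pIpC changed.

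**Figure D1:**
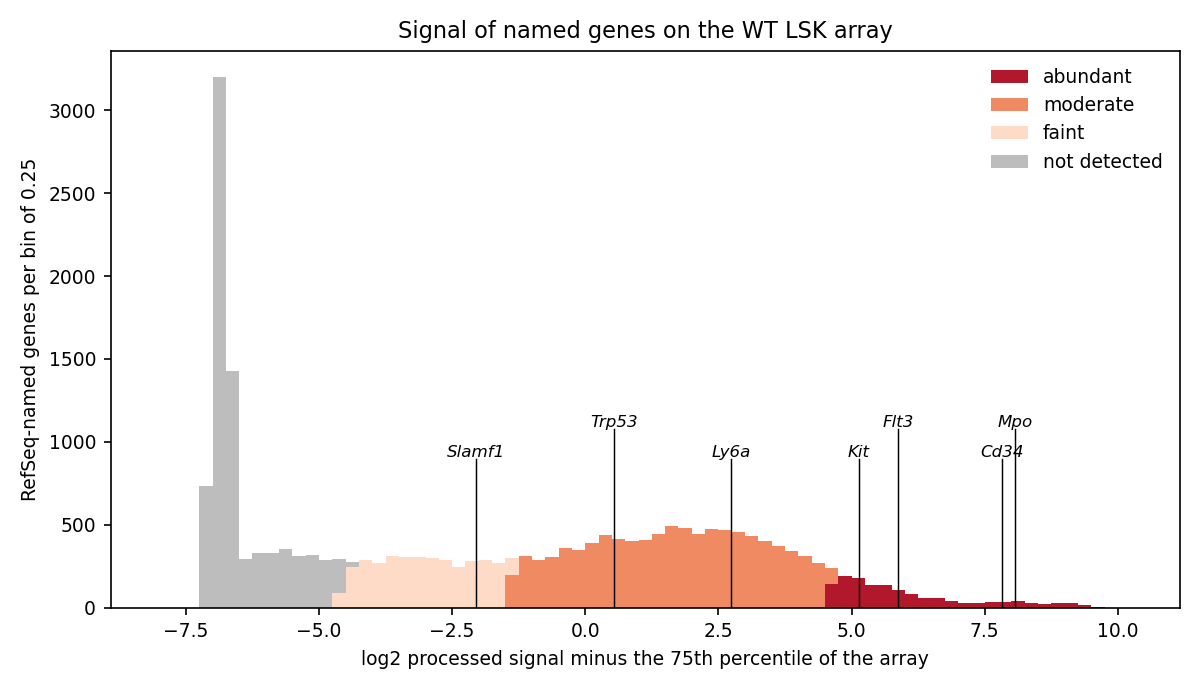
Number of RefSeq-named genes (vertical axis) by log2 processed signal minus the array's 75th percentile (horizontal axis, bins of 0.25), coloured by band, for the WT LSK array. Genes not detected pile up at the left; the vertical lines mark Slamf1 in the faint band, Trp53 and Ly6a in the moderate band and Kit, Flt3, Cd34 and Mpo in the abundant band.

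The label was checked first with 5 genes: Kit and Ly6a, which encode the 2 proteins of the sort (cKit and Sca-1), Flt3 and Cd34, which mark progenitors within the fraction, and Mpo, the myeloperoxidase of early myeloid cells. They were read by 9 probes. The start of each probe (30 of its 60 bases, 5′ to 3′) is printed because the label rests on what these oligonucleotides bound, and because probes of the same gene gave unlike signals.
Kit probe 1: gtcaggtacttaaggggccacaccattgag
Ly6a probe 1: tatgagttatagaagctccaaggtgggagt
Flt3 probe 1: agatgctgtctgccattactccaaagtgac
Flt3 probe 2: cgtggatcttctctcaagcctcatttcctt
Flt3 probe 3: tttctggggccacacagcgagaccctgtct
Cd34 probe 1: ccagagatgagaggattgggtgtattctct
Cd34 probe 2: taaacaagatatcgggagccaccagagcta
Mpo probe 1: gaaggacggaggccattggccttcctgtgc
Mpo probe 2: cctgccaaactgaatcgccagaatcaaatt

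All 5 genes were detected and 4 were abundant. Kit had a signal of 17596 ± 1760 at its single probe (chr5:76052394-76052453, mm9, plus strand), where the error is the scanner software's own estimate for the spot signal, about 10%, and not a spread between mice. Ly6a had 3360 ± 336 at its single probe (chr15:74825553-74825612, mm9, minus strand) and lay in the moderate band, at percentile 71.3.

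Cd34 had 114464 at probe 1 (chr1:196787392-196787451, mm9, plus strand) and 2130 at probe 2 (chr1:196785280-196785339). Mpo had 135026 at probe 1 (chr11:87617840-87617899, mm9, plus strand) and 20911 at probe 2 (chr11:87615121-87615180). Both Mpo probes were in the abundant band, whereas probe 2 of Cd34 was moderate. Flt3 had 29293 at probe 1 (chr5:148142576-148142635, mm9, minus strand), 1328 at probe 2 (chr5:148178496-148178555) and 145 at probe 3 (chr5:148174133-148174192). The 3 Flt3 probes therefore fell in 3 different bands. Probe 3 of Flt3 and probe 2 of Mpo are annotated to another transcript record than the other probes of their gene. The rule takes the brightest probe of a gene, so Flt3 and Cd34 count as abundant on the word of 1 probe each.

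This spread between probes sets how coarsely the array can be read. Among 250 probes printed as 10 spots and well above background, the median standard deviation between spots was 0.0543 on the log2 scale, so a probe was measured closely. Among 4320 genes with at least 2 detected probes, the brightest and the dimmest differed by a median of 2.41 on the log2 scale, or 5.33-fold, and by 56.4-fold at the 90th percentile. Of these genes 54.7% had all detected probes in the same band. Of the 1440 abundant genes, 776 were read by a single probe, and of the other 664 only 146 (22.0%) had every probe in the band, against 46.3% of moderate and 27.8% of faint genes. What set the probes of a gene apart was not tested.

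**Figure D2:**
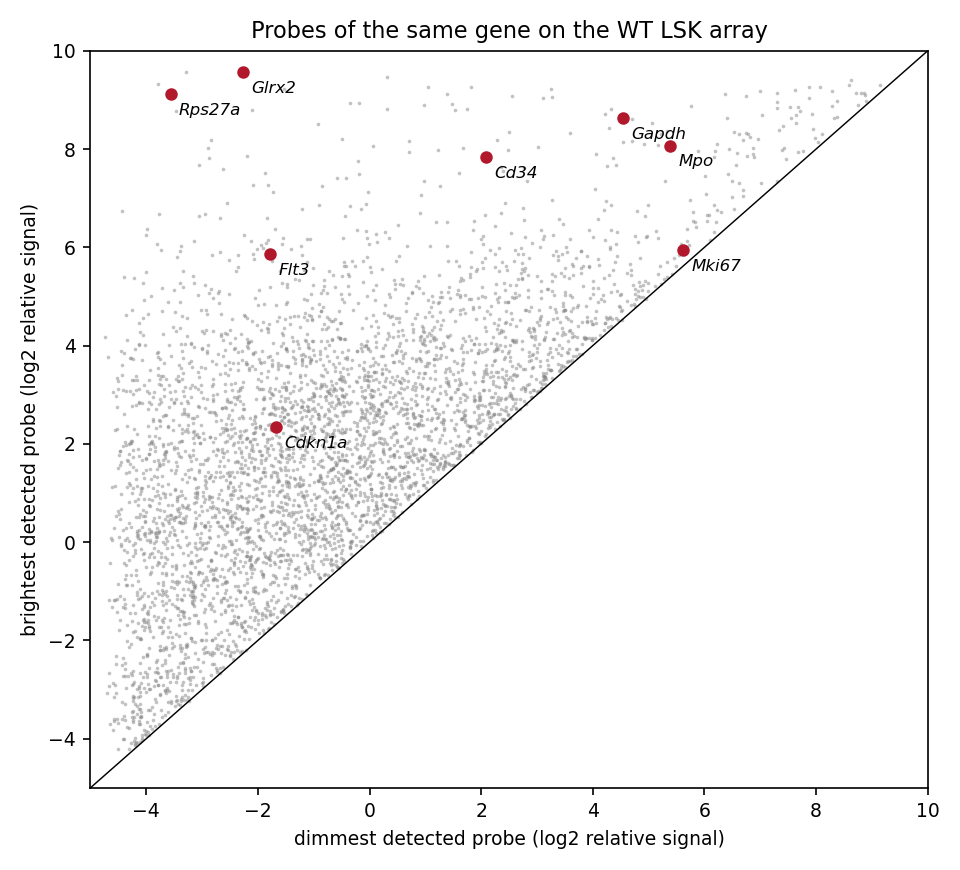
Brightest (vertical axis) against dimmest (horizontal axis) detected probe of each of the 4320 genes with at least 2 detected probes, as log2 signal relative to the array's 75th percentile; the line marks equal signals and 8 genes are named. Mki67 lies close to the line, whereas Rps27a and Glrx2 have 1 probe in the abundant band and another in the faint band.

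Genes with more probes also had more chances to be detected. The share detected was 58.0% for the 15232 genes with 1 probe, 77.8% for those with 2, 85.6% for those with 3 and 87.8% for those with 4. The share abundant rose too, from 5.09% with 1 probe to 8.09% with 2 and 13.6% with 3. Counts over genes with a single probe are therefore given beside some of the main ones.

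Genes known to be active in haematopoietic stem cells were all detected. Of the 30 stem cell genes, 4 were abundant, 17 moderate and 9 faint, a share abundant of 13.3% against 6.48% of all genes, with a median percentile of 57.3 against 50. The 21 members read by 1 probe were all detected, against 8833 of 15232 such genes (58.0%) on the whole array. Of these 21 members 3 were abundant (14.3% against 5.09%). The abundant members were Cd34, Adgrg1, Meis1 and Angpt1, and 7 members were abundant when a looser flag, for a positive and significant signal, was used for detection.

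Adgrg1 (GPR56), an adhesion receptor of stem cells, had a signal of 52761, and Meis1, a homeobox partner of Hox proteins, had 26141. Angpt1, the ligand of the receptor Tie2, had 17234, while Tek, which encodes Tie2 itself, was faint at 160. Hlf, a transcription factor that maintains stem cells, had 11018, just under the limit of the abundant band. Procr, the endothelial protein C receptor used to enrich stem cells, was moderate at 5892.

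Several genes of this list, among them markers of the rarest stem cells, were faint. Slamf1, which encodes CD150, had a signal of 120, Mecom, the Evi1 locus, had 92 at the brighter and 47.7 at the dimmer of its 2 probes, and Fgd5 had 43.0. Hoxb5 was at 101, the drug pump gene Abcb1a at 84.8 and the receptor gene Neo1 at 28.9. A low signal in RNA of mixed cells can come from few cells, little RNA in each cell or a probe that binds weakly. These cannot be told apart here, and Slamf1, Fgd5, Hoxb5, Abcb1a and Neo1 were each read by 1 probe.

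The transcription factors of blood were higher placed than the stem cell genes as a group. Of 30, 29 were detected, 7 were abundant (23.3% against 6.48%), 21 moderate and 1 faint, and their median percentile was 78.5 against 50. Abundant members were Lyl1 (54201) and its cofactor Lmo2 (53287), Myb (36205), the Runx partner Cbfb (25440), Zfpm1 (19275), which encodes the GATA cofactor FOG1, Nfe2 (18821) and Hhex (12241). All but 1 of these 7 were read by a single probe.

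Moderate members included Gfi1 (8762), Runx1 (7606), Tal1 (7061), Gata2 (7027) and Fli1 (5177). Spi1, the gene of PU.1, was moderate at 390 and Cebpa, the factor that opens the granulocyte path, at 1088. The factors that commit cells to the B lineage stood at the other end. Ebf1 was faint at 118 and Pax5 was not detected.

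**Figure D3:**
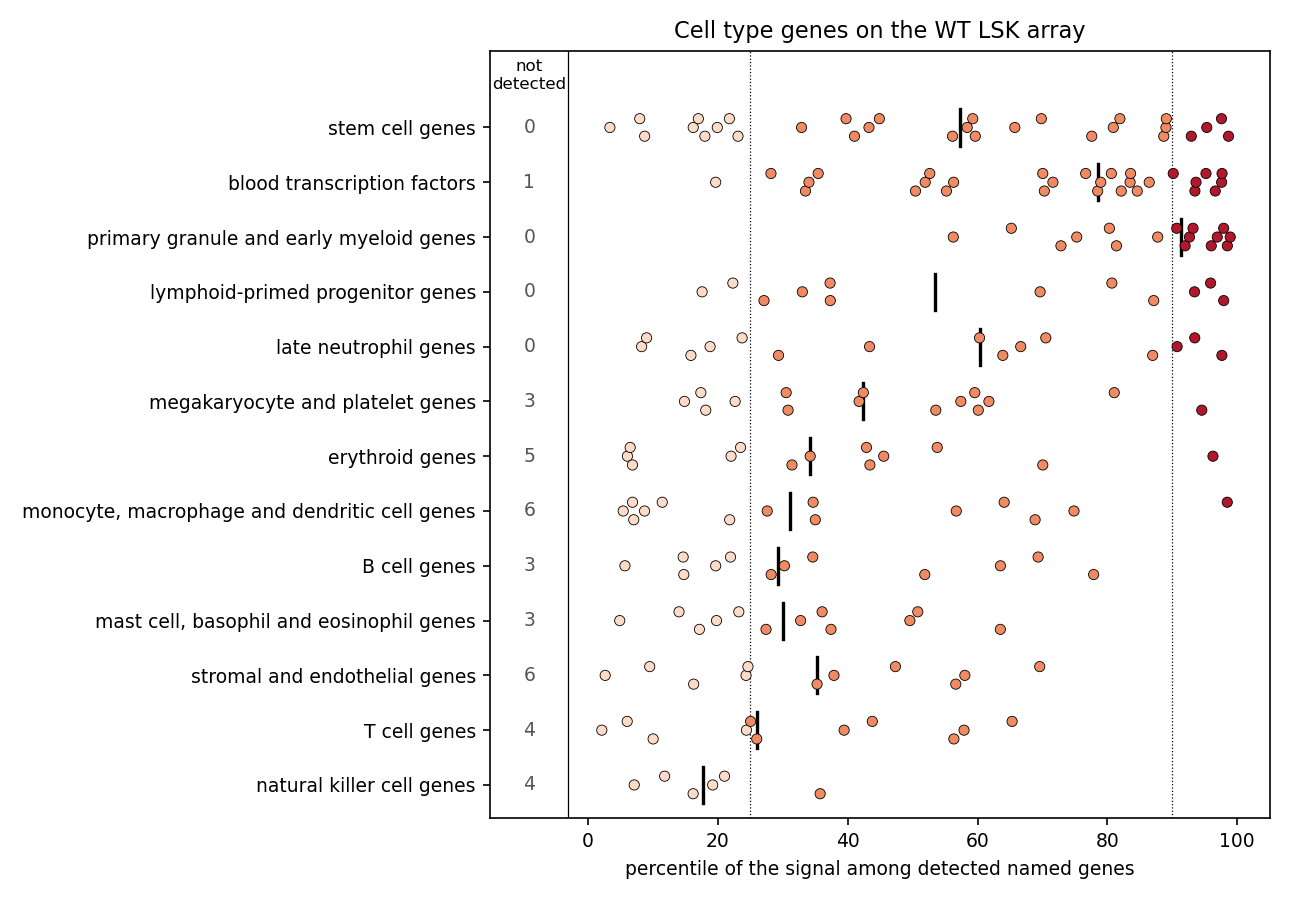
Percentile of the signal among detected RefSeq-named genes (horizontal axis) for the members of 13 cell type lists on the WT LSK array; each point is a gene, coloured by band (dark red abundant, orange moderate, pale faint), bars are list medians, dotted lines are the 25th and 90th percentiles and the left column counts members not detected. Early myeloid genes have the highest median (91.3) and natural killer cell genes the lowest (17.7). Members of the lists were chosen with earlier results of these data known.

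Among the cell type lists, the early myeloid list had the highest median percentile. Its members were chosen with earlier results of these data known, so its rank and shares describe the list and test nothing. All 16 primary granule and early myeloid genes were detected, 9 were abundant (56.2% against 6.48%) and 7 moderate, with a median percentile of 91.3 against 50. Of the 11 members with a single probe 5 were abundant (45.5% against 5.09% of such genes). Beside Mpo, the abundant members were Csf3r (98792), the receptor for G-CSF, Plac8 (62852), the granule protease gene Ctsg (39942) and the granule membrane gene Cd63 (30006). Anxa1 (17873), Nkg7 (16641), Csf2ra (15403), the binding chain of the GM-CSF receptor, and Calr (13083) were abundant too. The proteases Elane (9739) and Prtn3 (5666), and Ms4a3 (2424), a gene of committed granulocyte and monocyte progenitors, were moderate. Cebpe, needed for the later granules, was moderate at 1515. Of the 4 abundant members with more than 1 probe, only Mpo had every probe in the band; Plac8 had 4856 at its other probe.

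Late neutrophil genes were also all detected (15 of 15), but with a median percentile of 60.3 they were spread over the bands, with 3 abundant, 7 moderate and 5 faint. The abundant members were the alarmins S100a9 (53988) and S100a8 (18744) and the integrin gene Itgam (13127), whose product is a common lineage marker. The dimmest of the 3 Itgam probes gave 37.9, in the faint band. The genes of secondary granules Camp (9124), Ltf (2617), Lcn2 (2263) and Ngp (1859) were moderate, whereas Mmp8, Mmp9, Fcnb, Cxcr2 and Cd177 were faint, between 44.2 and 168. What share of these signals came from mature cells that passed the sort was not tested, and the sources used here do not name the antibodies of the lineage gate.

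Lymphoid-primed genes formed an uneven set. All 12 were detected and 3 were abundant (25% against 6.48%), with a median percentile of 53.5 against 50. Dntt, which encodes the terminal transferase that adds bases at joints of antigen receptor genes, had a signal of 62966 at its single probe. Flt3 was abundant too.

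The other members were moderate or faint. Satb1 (9232), a chromatin organiser, the kinase gene Lck (5795) and Cd27 (3077) were moderate. Il7r, the interleukin-7 receptor on which common lymphoid progenitors depend, was moderate at 364. Of the recombinase genes, Rag1 was faint at 148 and Rag2 was at 225, just above the limit of the faint band. Tcf7, a Notch target of early T cells, was faint at 98.2, and Notch1 (493) and the chemokine receptor gene Ccr9 (491) were moderate.

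Markers of mature blood cells were detected more often than genes at large but at low levels. Over the 8 lists of mature blood cells, 98 of 126 measured genes were detected (77.8% against 64.8%), 6 were abundant (4.76% against 6.48%), and the median percentile was 32.1 against 50. Of 15 B cell genes 12 were detected (80% against 64.8%) and none was abundant. Cd79b (4860), Blnk (3032) and the surrogate light chain gene Vpreb1 (2213) were moderate, and Ms4a1, Blk and Pax5 were not detected. The B cell genes that were moderate thus included some that act before a B cell receptor is assembled.

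Of 15 T cell genes 11 were detected, with a median percentile of 26.0. Lat (2438), Cd4 (1654), Cd28 (1522) and Cd3e (566) were moderate, whereas Cd3d, Cd3g, Cd8a and Cd8b1 were not detected. Of 10 natural killer cell genes 6 were detected, 5 of them faint; Ncr1, Klrk1, Eomes and Tbx21 were not detected.

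Of 20 monocyte, macrophage and dendritic cell genes 14 were detected, with a median percentile of 31.2. Csf1r, the receptor for M-CSF, was moderate at 4111 and Lyz2, lysozyme, at 2288. Mrc1, Mertk, C1qa, C1qc, Xcr1 and Cd209a were not detected. The exception was Siglech, a receptor of plasmacytoid dendritic cells, with 96928 at its brightest probe, 81.4 at another and a further probe not well above background. With the first probe by name or the median over probes, no gene of this list was abundant.

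Of 18 erythroid genes with a probe 13 were detected, with a median percentile of 34.2. Car2, carbonic anhydrase II, was abundant at 32202, and Gata1 (3144) and Epor (689), the erythropoietin receptor, were moderate. Among genes of haemoglobin and of the red cell membrane, Ermap (711), Rhd (395) and Hba-a1 (320) were moderate, Kel (145), Slc4a1 (39.6), the band 3 anion exchanger, and Rhag (38.2) were among the faint members, and Alas2, Sptb and Epb42 were not detected.

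Of 18 megakaryocyte and platelet genes 15 were detected, with a median percentile of 42.4, or 35 with the median over probes, where the erythroid median was 35 too. Plek, the pleckstrin gene, was abundant (22496) and Pf4, platelet factor 4, moderate (5960). Itga2b, which encodes CD41 and is also carried by stem and progenitor cells, had 1841, Itgb3 2008 and Vwf 1298. Tubb1 and Gp6, of mature platelets, were not detected. Of 15 mast cell, basophil and eosinophil genes 12 were detected, none was abundant, and Cpa3 (2212), a protease gene of mast cells and their progenitors, was moderate.

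Genes of stromal and endothelial cells were detected as often as genes at large (11 of 17, or 64.7% against 64.8%), and none was abundant. Cdh5, Pdgfra, Col1a1, Col3a1, Bglap and Adipoq were not detected, and Cxcl12, the chemokine of the niche, was faint at 178. Kdr (3063), the main VEGF receptor, Pdgfrb (1663) and Lepr (1550) were moderate. The other Kdr probe gave 145, in the faint band, and only 1 of 4 Lepr probes was detected. None of the 3 moderate members with more than 1 probe had every probe in the band. Over 5 lists of other tissues (neural, liver, muscle, germ cell, epithelial and pancreas genes) 22 of 50 were detected (44.0% against 64.8%), with a median percentile of 20.0. Alb, Ttr, Ins1, Gad1, Neurod1 and Acta1 were not detected.

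The labelled sex was checked with 5 genes. The Y-linked genes Eif2s3y (3869) and Ddx3y (1998) were moderate and Uty (74.2) was faint, while Kdm5d and the X inactivation transcript Xist were not detected.

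Receptors for cytokines and growth factors were better represented than their ligands. Of 30 receptors 28 were detected and 5 were abundant (16.7% against 6.48%), with a median percentile of 65.7. These were Csf3r, Flt3, Kit, Csf2ra and Il11ra1 (15158). Moderate receptors included Il6ra (10005), Tgfbr2 (5226), Il3ra (5081), Igf1r (4555) and the shared beta chain gene Csf2rb (3757). Bmpr1a and Osmr were not detected.

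Of 21 niche ligands 12 were detected (57.1% against 64.8%) and Angpt1 alone was abundant. Those not detected included Kitl, the ligand of Kit, and Csf2, Csf3, Epo, Dll1 and Dll4. Tgfb1 (3577), which holds stem cells in rest, and Flt3l (1383) were moderate. Read side by side, the receptors Kit and Csf3r were abundant, and the probes of the factors that bind them were not well above background.

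Adhesion and homing genes were all detected (24 of 24), 5 of them abundant. Cd47 (33320), whose protein keeps macrophages from engulfing the cell, Spn (29134), which encodes CD43, and the GTPase genes Cdc42 (28628) and Rac2 (17776) were among the abundant members. The integrin chains Itga6 (11739) and Itga4 (10234) and Cxcr4 (2732), the receptor that retains stem cells in marrow, were moderate. Of the 5 abundant members 3 had more than 1 probe, and none of those had every probe in the band. With the looser detection flag 8 were abundant.

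Notch, Wnt and Hedgehog genes were lower placed. Of 23, 20 were detected, 13 moderate and 7 faint, and none was abundant, with a median percentile of 35.5 against 50. The moderate members included receptors and transducers, such as Smo (8297), Ctnnb1 (5754), which encodes beta-catenin, Notch2 (4844) and Rbpj (1907), and the nuclear factors Tcf7l2 (380) and Lef1 (231). Of the 8 moderate members with more than 1 probe, 3 had every probe in the band, and the other Notch2 probe gave 47.2. Of the pathway targets, Nrarp was moderate at 271, Hes1 (103) and Hey1 (145) were faint, and Axin2, Gli1 and Dtx1, targets of Wnt, Hedgehog and Notch signals, were not detected.

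**Figure D4:**
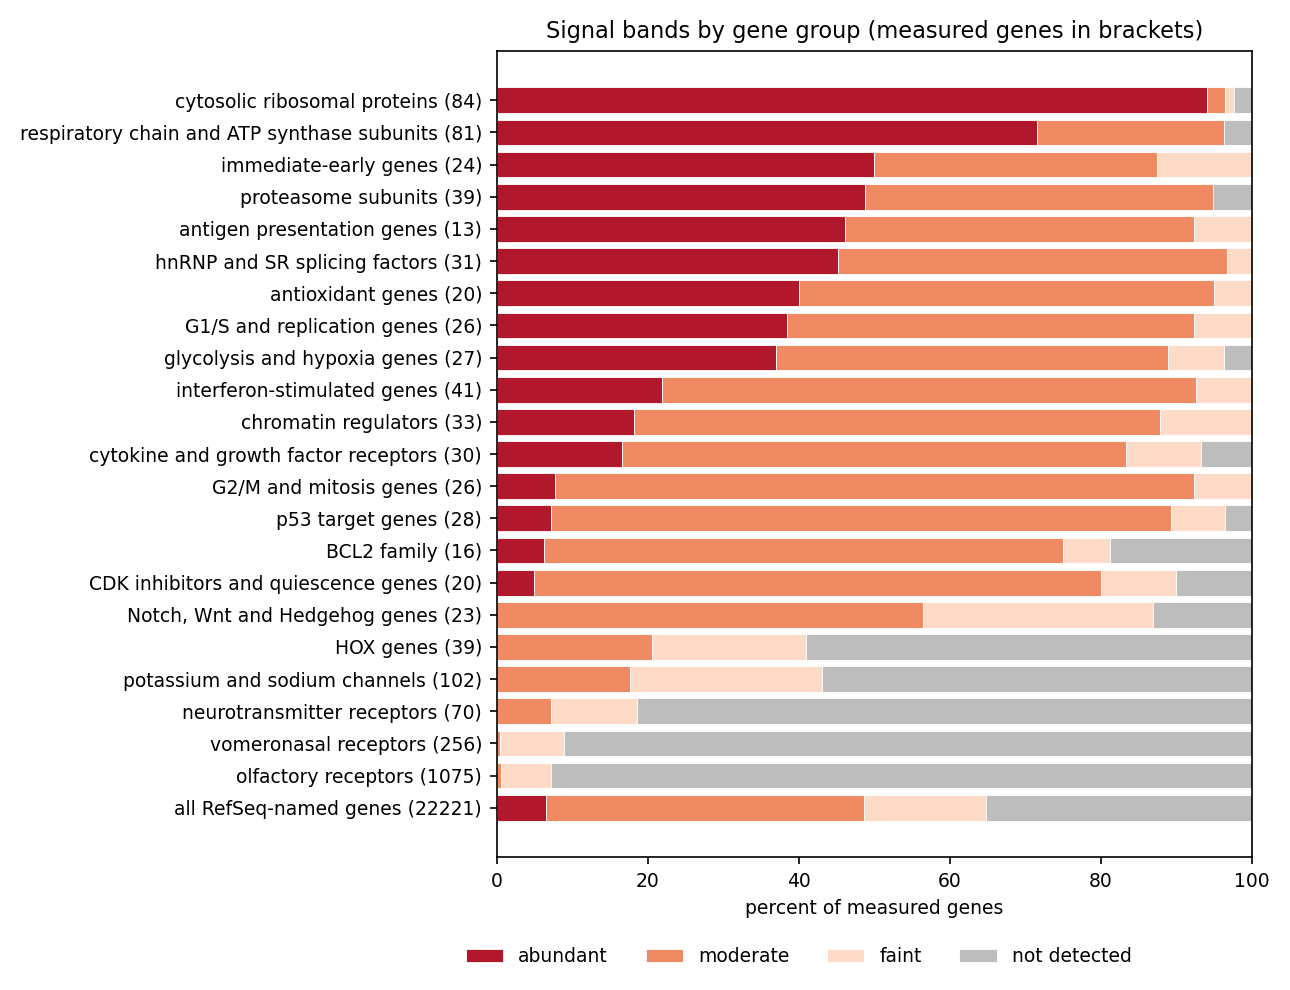
Share of measured genes in each band (horizontal axis, percent) for 22 gene groups and, at the bottom, all 22221 RefSeq-named genes on the WT LSK array, with the number of measured genes in brackets. Ribosomal proteins reach 94.0% abundant and olfactory receptors 7.16% detected, against 6.48% and 64.8% of all genes.

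Interferon-stimulated genes, whose products block viruses, were all detected. Of 41, 9 were abundant (22.0% against 6.48%), 29 moderate and 3 faint, with a median percentile of 69.3 against 50. All 29 of those with a single probe were detected and 4 were abundant (13.8%), against 58.0% and 5.09% of such genes. The abundant members were the membrane proteins Ifitm1 (40005), Ifitm2 (14483) and Ifitm3 (13150), which block viral entry, Ifi27 (27344), the factor Irf1 (24326), the immunoproteasome subunits Psmb8 (19237) and Psmb9 (16119), the ligase Trim25 (17527), which activates RIG-I, and Oas1a (12600). Ifitm1 had 36270 at its other probe and Trim25 14804, so these 2 were abundant at every probe. The other probe of Oas1a gave 2249, in the moderate band, that of Psmb9 gave 33.2, in the faint band, and that of Irf1 was not well above background.

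The other members were spread over the moderate and faint bands. Mx1, the gene whose promoter drives Mx1-Cre in the mutant mice of the study, was moderate at 357, as were Irf7 (377), Ifit1 (308), Ifit2 (366) and Rsad2 (935). Ifit3 (117) and Ddx60 (47.1) were among the faint members. Rtp4 (8110), Bst2 (7457), Irf9 (7365), Isg15 (5868), Oas2 (4458), Oasl2 (4349) and Oasl1 (3724) were moderate and nearer the top of the band. Members of this list therefore ranged from percentile 9.13 to percentile 96.9.

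Among sensors, interferons and their receptors 17 of 20 genes were detected. Irf3, the factor that induces interferon beta, was abundant at 15132, and 2 genes were abundant under 3 of the 6 alternatives. The cytosolic sensors Ddx58 (4649), which encodes RIG-I, and Ifih1 (1604), which encodes MDA5 and binds pIpC in the cytosol, were moderate. Both chains of the type I interferon receptor, Ifnar1 (2489) and Ifnar2 (5403), and the kinases Jak1 (10902) and Tyk2 (1171) were moderate as well. Tlr3, the endosomal receptor of double-stranded RNA, and the interferon genes Ifnb1 and Ifna4 were not detected. The receptor chains and kinases that answer interferon were thus detected, and the interferon genes on the list were not.

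Antigen presentation genes were all detected (13 of 13), and 6 were abundant. The class I genes H2-K1 (146624), B2m (111026), H2-D1 (64580) and H2-T23 (59253) and the peptide transporter Tap2 (34722) were abundant. Of class II, H2-Ab1 was abundant at 14330, H2-Eb1 (4098) and Cd74 (3047) were moderate, and Ciita, which switches class II genes on, was faint at 24.3. Class I genes are alike in sequence, so the split of signal between them is uncertain.

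Most genes of the p53 pathway were moderate, as were most detected genes on the array. Trp53, which encodes the tumour suppressor p53, had a signal of 730 ± 73.2, at the moderate band's lower side. Ppp1r13b, the gene of ASPP1, which favours p53 at pro-apoptotic genes, was abundant at 13182 ± 1318, just inside the limit of 12117. Its relatives Trp53bp2 (340), which encodes ASPP2, and Ppp1r13l (971), the inhibitory member iASPP, were moderate. These 3 ASPP genes were each detected, as were p53's ligase Mdm2 (13188, abundant), its relative Mdm4 (546) and the deubiquitinase Usp7 (12167, abundant).

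Of 17 p53 regulators 16 were detected and 3 were abundant; these 3 lay close to the limit, and only 1 was abundant with a normexp background correction. The kinases Atr (4928) and Atm (1216) were moderate, whereas Chek1 (32.3) was faint. Cdkn2a, whose ARF product restrains Mdm2, was not detected. Of 28 p53 target genes 27 were detected, 2 were abundant (7.14% against 6.48%) and 23 moderate, with a median percentile of 53.03 against 50.

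The p53 targets of cell cycle arrest were moderate, with Cdkn1a, the gene of p21, at 2530 over 10 spots of its brightest probe, Ccng1 at 1630 and Gadd45a at 1013. Another Cdkn1a probe gave 156 and a further one was not well above background. The pro-apoptotic targets Bbc3 (4471), which encodes PUMA, Bax (4203) and Pmaip1 (2232), which encodes NOXA, were moderate, and Fas was faint at 67.4. The abundant targets were Btg2 (14144), an antiproliferative gene that is also an immediate-early gene, and the nuclease gene Aen (12993).

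In the BCL2 family 13 of 16 genes were detected. Mcl1, the survival protein on which stem cells depend, was abundant at 36983, with 15604 at its other probe, so both lay in the band. The survival genes Bcl2l1 (5372), which encodes BCL-XL, and Bcl2 (3210) and the effectors Bak1 (7606) and Bax were moderate. Bcl2l11, which encodes the killer BIM, was faint at 175, and Bik, Hrk and Bcl2l10 were not detected.

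Genes of the G1/S transition and of DNA replication were all detected (26 of 26), 10 of them abundant (38.5% against 6.48%), with a median percentile of 85.6 against 50. The MCM helicase was represented by Mcm6 (94647), Mcm3 (41396), Mcm7 (27382), Mcm4 (23906) and Mcm5 (17802) in the abundant band and Mcm2 (8212) in the moderate band. Pcna, the sliding clamp, had 43559, Cdk4 39809 and its cyclin Ccnd3 28488. Cdk6, the other partner of the D cyclins, was moderate at 698. Ccne2 was faint at 18.6 and Orc1 at 165.

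All 26 genes of G2/M and mitosis were detected too, with 2 abundant, 22 moderate and 2 faint and a median percentile of 73.3. Mki67, the proliferation antigen, gave 31050 and 24532 at its 2 probes, and Birc5, survivin, 19910. Ccnb2 (11870), Cdc20 (10728), Plk1 (7995) and Top2a (6882) were moderate, and 4 genes were abundant with the looser flag. The moderate band held most genes of both lists, as it did of all detected genes. The abundant band held 10 of 26 replication genes and 2 of 26 mitotic genes. Among members with a single probe it held 7 of 20 and 0 of 19.

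Of 20 CDK inhibitors and quiescence genes 18 were detected. Btg1 was abundant (15900), but not when the median over its probes was taken. The inhibitor genes Cdkn1b (7059), Cdkn2d (6731), Cdkn1c (959), which encodes the p57 of resting stem cells, and Cdkn2c (707) were moderate, as were Foxo1 (1682) and Foxo3 (1344). The senescence-linked Cdkn2a and Cdkn2b were not detected. Of the MYC network 12 of 13 genes were detected and none was abundant, although Mnt (11649), Myc (10202) and Max (9994) lay just below the limit.

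Immediate-early genes, which are transcribed within minutes of many stimuli, were among the highest-placed lists. All 24 were detected and 12 were abundant (50% against 6.48%), with a median percentile of 90.4 against 50. Jun had a signal of 227376, Nr4a1 225342, Klf6 160000, Fos 118903, Klf2 111203 and Egr1 101870. Fosb (80606), Jund (79918), Dusp1 (30152), Klf4 (19890), Atf3 (16562) and Btg2 were abundant too.

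The family was not uniformly high. Junb (2325), Egr2 (2240) and Ier5 (1739) were moderate, and Egr3 (144), Fosl1 (83.7) and Ccn1 (41.1) were faint. The 12 abundant members were each read by a single probe, so no other probe bears on them. The sources used here do not state how long the cells were handled before lysis.

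Genes of protein synthesis and energy metabolism were often abundant. Of 84 cytosolic ribosomal protein genes 82 were detected and 79 were abundant (94.0% against 6.48%), and they held 15.1% of the summed signal of all detected genes. Of 81 subunits of the respiratory chain and ATP synthase 78 were detected and 58 were abundant (71.6%), with Atp5g2 (112049), Cox6a1 (111956) and Atp5b (106973) the brightest. All 13 protein-coding genes of the mitochondrial genome were detected, 10 of them abundant. Mitochondrial ribosomal proteins were all detected (78 of 78) but mostly moderate, with 14 abundant (17.9%).

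Proteasome subunits (19 of 39 abundant), translation factors (23 of 68), hnRNP and SR splicing factors (14 of 31) and chaperonin and heat-shock proteins (21 of 77) were also well above the 6.48% of all genes. Histone genes were detected in 52 of 53 cases and abundant in 20. The H2A genes are nearly identical, so the split of signal between them is uncertain. Housekeeping genes used for normalisation were abundant in 11 of 12 cases, the exception being Tbp (1716).

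Of 27 glycolysis and hypoxia genes 26 were detected and 10 were abundant (37.0%). These included Gapdh (198078), Hk1 (127230), Ldha (99599), Gpi1 (80065), Aldoa (65563) and Pkm (19750), and among glucose transporters Slc2a3 (10134) and Slc2a1 (2681) were moderate. The oxygen-regulated factors Hif1a (697), on which stem cells of the hypoxic marrow depend, and Epas1 (3774) were moderate. Egln1, the oxygen sensor that marks Hif1a for destruction, was faint at 147, and Pdk4 was not detected. Hk1 had another probe at 1170, in the moderate band.

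Antioxidant genes were all detected (20 of 20), and 8 were abundant (40%), with a median percentile of 85.0. Gpx1 (96346), which reduces peroxides, Prdx6 (59654) and Sod1 (54012), the cytosolic superoxide dismutase, were abundant, and catalase, Cat, was moderate at 1610. Of the 2 abundant members with more than 1 probe, neither had every probe in the band, and the dimmest Prdx6 probe gave 85.9. The Nrf2 gene Nfe2l2 was moderate (4680). Its targets were spread, with Prdx1 (12035), Txnrd1 (11267), Gsr (5543), Gclc (3705), Gclm (874) and Hmox1 (222) moderate and Nqo1 (97.8) faint. DNA repair genes were all detected as well (22 of 22), 5 of them abundant. Rpa1 (24003), which coats single-stranded DNA, and the mismatch repair gene Msh6 (16947) were among these, whereas Brca1 (48.3) and Lig4 (153) were faint.

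Chromatin regulators were all detected (33 of 33), with 6 abundant, 23 moderate and 4 faint. The abundant members included Smarca4 (43543), the motor of the SWI/SNF complex, Hdac1 (29964), Uhrf1 (13742), the de novo DNA methyltransferase Dnmt3b (12747) and the Polycomb subunit Eed (12732). None of the 4 abundant members with more than 1 probe had every probe in the band, and the other Uhrf1 probe gave 246. Ezh1 (9906), Ezh2 (6023), Dnmt3a (2514), Bmi1 (2488) and Tet2 (1529) were moderate. Kmt2a, the MLL gene, was faint at 75.7. Of 25 genes recurrently mutated or rearranged in leukaemia 24 were detected; Npm1 (101691), Idh2 (45879), the splicing factor U2af1 (24702) and Ptpn11 (14546), which encodes SHP2, were abundant with Flt3, and Wt1 was not detected. With the first probe by name in place of the brightest, 3 leukaemia genes and not 5 were abundant.

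The HOX genes, which encode homeobox factors that pattern the body axis and, in blood, sustain self-renewal, differed by cluster. Of 39 HOX genes 16 were detected (41.0% against 64.8%) and none was abundant. The Hoxa cluster had 9 of 11 detected, Hoxb 6 of 10, Hoxc 1 of 9 and Hoxd 0 of 9. Hoxa7 had the highest signal (8659), followed by Hoxb4 (1605), Hoxa3 (1512) and Hoxa9 (773), the order being that of different probes. Hoxc6, named after its value was seen, was the detected member of its cluster, faint at 39.5.

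Imprinted genes were seldom high. Of 15, 10 were detected, with a median percentile of 31.2. Gnas was abundant at 33851 with 2 of its 4 probes not detected, and none was abundant with the first probe by name or the median over probes. H19 was faint at 63.0, and Igf2, Peg3, Peg10, Mest and Snrpn were not detected.

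Families whose members serve the senses, nerves or epithelia were largely not detected. Of 1075 olfactory receptor genes 77 were detected (7.16% against 64.8%), 71 of them faint. Of 256 vomeronasal receptors 23 were detected, of 35 bitter taste receptors 2, of 42 beta-defensins 3, and of 70 neurotransmitter receptors 13. Potassium and sodium channels were detected in 44 of 102 cases and none was abundant. For scale, 3 of 308 negative control spots (0.974%) were well above background. By contrast, zinc finger genes named Zfp were nearly all detected (344 of 376, or 91.5%) but rarely abundant (8 genes, or 2.13% against 6.48%).

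The 30 genes with the highest signals were mostly genes of translation and chromatin. They included 13 ribosomal protein genes and 6 H2A genes, and held 9.44% of the summed signal, whereas the abundant band as a whole held 75.1%. The ribosomal protein gene Rpl35 had 343278 and Rps10 had 342344. The others included Tpt1 (293175), which encodes the translationally controlled tumour protein, and the small RNA gene Rn4.5s (325401).

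Some of the 30 rest on discordant probes. Of the 18 with more than 1 probe, 8 had a detected probe more than 10 times dimmer than the brightest. Kctd14 had 381570 at one probe and 51.7 at another, and Glrx2, a glutaredoxin gene, 378885 and 104. Elk1 had 323795 and 36.5. Over genes with at least 3 detected probes, Kctd14, Rps27a (278563 and 42.5) and Glrx2 showed the widest gaps, up to 7378-fold for Kctd14. Slc10a1, the liver's bile acid transporter, was also among the 30 (389200), with its other probe not detected.

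Among classes of transcript, 67.3% of 20125 protein-coding genes were detected and 34.3% of 1559 long non-coding RNA genes. Only 13 of these long non-coding RNA genes were abundant. Of 207 pseudogenes 70.5% were detected and 37.7% were abundant, and of 254 transcribed pseudogenes 52.8% were detected and 11.8% were abundant. Pseudogenes can be nearly identical to their parent genes, so these levels are uncertain by gene. Among probes with no RefSeq name, 36.5% of the 16180 that tile intergenic intervals were well above background, against 53.3% of all probes.

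Promoters were read for 16115 protein-coding genes, over the 250 bases before and 50 after the gene start in RefSeq (GRCm38.p6). The ratio of observed to expected CpG had a median of 0.794 in abundant genes, 0.771 in moderate, 0.489 in faint and 0.246 in genes not detected, against 0.616 over all of them. Abundant and moderate genes thus had promoters of like CpG content. The letters CCGGAA, the core bound by ETS factors, were found on either strand in 30.9% of abundant, 29.9% of moderate, 14.0% of faint and 6.59% of undetected genes, against 20.0% of all. CCGGAA itself holds a CpG, so its share is not independent of the CpG ratio. The TATA letters TATAAA were found in 10.1% of abundant, 6.34% of moderate, 13.0% of faint and 22.3% of undetected genes, against 12.8% of all.

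**Figure D5:**
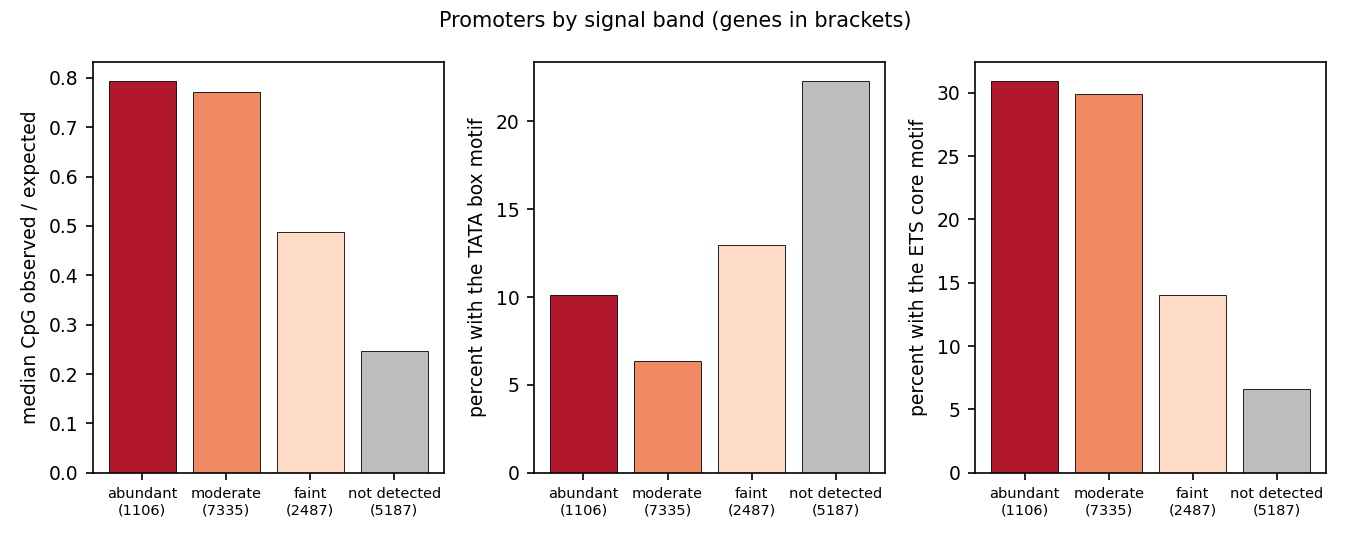
Median observed to expected CpG ratio (left panel) and percent of promoters that hold TATAAA (middle) or CCGGAA (right), for protein-coding genes by signal band on the WT LSK array, with the number of genes in brackets. CpG and ETS letters are alike in the abundant and moderate bands and lower in the faint band and in genes not detected, and TATAAA is most frequent in genes not detected (22.3%).

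The cytosolic ribosomal protein genes, of all bands, held CCGGAA in 50% of 62 promoters. The interferon-stimulated genes held CCGGAA in 9.38% of their promoters and were richer in other letters. GAAANNGAAA, the core of the interferon-stimulated response element, was found on either strand in 15 of their 32 promoters (46.9%), against 3.40% of all promoters. The cytosolic ribosomal protein promoters held GAAANNGAAA in 9.68% of cases. By band, this element was found in 3.35% of abundant and 3.70% of undetected genes, so its share did not follow the band. Every gene of the list was detected, so these 15 could not differ in that. Of the 15, 3 were abundant, against 9 of 41 over the list.

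Windows around the element, upstream of the gene start, are printed for the 8 genes with the highest signals among those whose match lay before the start. Each holds a match in capitals (GRCm38.p6, 5′ to 3′ on the gene's strand), and together they show the element across the moderate and abundant bands. In Oas1a, Bst2, Isg15 and Gbp3, letters in lower case also form part or all of further matches.
Ifitm2: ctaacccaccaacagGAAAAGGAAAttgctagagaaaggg
Oas1a: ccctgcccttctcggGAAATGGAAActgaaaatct
Bst2: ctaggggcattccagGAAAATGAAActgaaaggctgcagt
Isg15: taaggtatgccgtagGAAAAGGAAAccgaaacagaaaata
Gbp3: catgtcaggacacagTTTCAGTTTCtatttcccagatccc
Gbp2: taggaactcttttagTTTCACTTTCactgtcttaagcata
Stat2: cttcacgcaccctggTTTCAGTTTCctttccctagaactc
Cxcl10: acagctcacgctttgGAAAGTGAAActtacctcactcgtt

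The windows lie at chr7:140955983-140956022 (Ifitm2, minus strand), chr5:120907526-120907560 (Oas1a, minus), chr8:71537578-71537617 (Bst2, minus) and chr4:156200872-156200911 (Isg15, minus). The other windows lie at chr3:142559984-142560023 (Gbp3, plus), chr3:142620589-142620628 (Gbp2, plus), chr10:128270261-128270300 (Stat2, plus) and chr5:92349078-92349117 (Cxcl10, minus). In Gbp3, Gbp2 and Stat2 the match in capitals was on the opposite strand and is seen as TTTCNNTTTC. Ifitm2 and Oas1a were abundant and the other 6 moderate, down to Cxcl10 at 1843. A match is a description of the letters and no evidence of a bound factor.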

How the data were processed

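The authors measured spot intensity with Agilent Feature Extraction 10.7.3.1, and probe positions are on mm9, both per the file headers. The processed intensity they deposited is linear, after subtraction of background and correction of trends across the slide. Spots at background level hold a substitute value, and arrays were not normalised to each other. RNA of 3 mice was pooled before labelling, per the labels' protocols.

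Of 62976 spots, 3671 control spots and 120 spots with an outlier flag were left out, which kept 55680 of 55681 probes; no gene spot was saturated. Spots of a probe were averaged on the log2 scale, and each value was set relative to the array's 75th percentile over probes, a signal of 502. Taken over spots instead of probes, the percentile was 571, which shifts every log2 value by 0.19 and changes no band. A probe was detected when more than 50% of its spots carried the deposited flag for a signal well above background, as 29652 probes (53.3%) did, down to a signal of 18.5. The brightest detected probe stood for a gene. Spike-in controls fitted log10 signal on log10 amount with a slope of 0.988 (R squared 0.988) over 5.11 powers of 10, per the file headers. With 1 array, no p-value was computed.

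Names in the file can be old. RefSeq gave a current symbol to 26762 probes by accession, to 3819 by symbol and to 639 by synonym, and 24461 stayed unnamed and outside the lists. The 42 lists held 786 entries, of which 784 had a probe; Hbb-b1 and Ahsp were not read. The members and the lists were chosen with earlier results of these data known. Named genes are members of the lists, the 3 brightest members of symbol families, the 30 brightest genes and the 10 with the widest gaps between at least 3 probes. The steps from spots to bands were tested on simulated data. The 6 alternatives were run, with Python 3.11.15, pandas 2.3.3, numpy 2.4.6 and, for normexp with an offset of 50, limma 3.58.1. Values of some single genes of the lists are not reported here, although the counts include them.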

Additional observations from a re-analysis of the deposited data

How the results depend on the processing

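No paired analysis was possible because there was 1 array and no replicate. The number of genes detected was 14400, and the alternatives gave 13123 to 17318; abundant genes numbered 1313 to 1732. Keeping outlier spots or using single spots left every list's counts within 1.5 times and its median percentile within 15.3 points, the usual spread between probes of a gene. With normexp, 1 p53 regulator was abundant (3 before) and 1 MYC network gene (0 before). With the first probe by name in place of the brightest, the abundant members were 0 of the monocyte list (1 before), 2 RNA sensors (1 before), 1 MYC network gene (0 before), 0 imprinted genes (1 before) and 3 leukaemia genes (5 before). In that setting 3 neural genes were detected (5 before) and the liver median was 7.46 (23.3 before). With the median over probes, the abundant members were 0 monocyte genes, 2 RNA sensors, 0 CDK inhibitors (1 before), 3 MYC network genes and 0 imprinted genes, and 2 muscle genes were detected (4 before). Medians then were 78.8 for lymphoid-primed genes (53.5 before), 11.1 for niche ligands (30.7 before) and 30.3 for muscle genes (8.24 before). The looser flag for a positive and significant signal raised the detected members to 5 sex check genes (3 before), 7 liver genes (3 before), 8 germ cell genes and 9 epithelial and pancreas genes (5 before in both). It placed 7 stem cell genes (4 before), 2 RNA sensors, 4 G2/M genes (2 before), 8 adhesion genes (5 before), 3 MYC network genes and 2 neural genes (1 before) in the abundant band, and the sex check median at 29.0 (61.7 before). The cause of these moves was not tested, beyond the looser flag adding genes by construction. Signal over background limits what is called not detected.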

Other observations

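A few genes of other tissues or of mature cells stood in or near the abundant band, and these values belong to no comparison. Krt18, a keratin of simple epithelia, had 15306 at its single probe, whereas its partner Krt8 was faint at 129. Mbp, the myelin basic protein gene, had 15460 at 1 probe, 356 at another and a further probe not well above background. Snap25, a gene of synaptic vesicle fusion, was moderate at 10323. Car2 had 32202 among erythroid genes that were otherwise moderate, faint or not detected.

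Chemokine genes were 21 of 35 detected and 3 abundant, and these were Cxcl11 (209517 and 9307 at its 2 probes, annotated in RefSeq as a transcribed pseudogene in the mouse reference), Ccl4 (61388) and Ccl3 (34392). Chemokine receptors had no abundant member among 18. Zfp628 was an abundant zinc finger gene with 243382 at 1 probe and 1395 at the other, and Cyp2u1 was the abundant member among 91 cytochrome P450 genes, with 48786 and 78.1 at its 2 detected probes.

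By chromosome, the share of protein-coding genes detected ran between 59.3% on X and 73.9% on chromosome 5 among the autosomes and X. On Y, 8 of 21 genes were detected and none was abundant.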
